A study of Mus musculus with 55 samples.

Results

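Axon guidance genes were followed through neuronal maturation, acute stimulation and prolonged silencing in cultured mouse neurons. They were chosen by name: every gene whose symbol begins with Sema, Plxn, Epha, Ephb, Efna, Efnb, Robo or Unc5, the 3 Slits, and Nrp1, Nrp2, Dcc, Ntn1 and Ntn4. This gave 69 genes of 29684 measured, among them 20 semaphorins, 9 plexins, 2 neuropilins, 8 ephrins, 14 Eph receptors, 3 Slits, 4 Robos, 2 netrins and 5 netrin receptors. Their letters also bring in Unc50, which encodes a Golgi protein, and Plxna4os1, an antisense transcript of the Plxna4 locus, and neither is a guidance gene. Unc5cl was not analysed here.

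Guidance cues steer growing axons by attraction or repulsion. Secreted class 3 semaphorins bind neuropilins, which signal through plexins of class A, whereas most membrane semaphorins bind plexins directly. Ephrins are anchored in the membrane of one cell and bind Eph receptors on the next, so that both cells can receive a signal. Slits repel axons through Robos, and netrins attract through Dcc and repel through receptors of the Unc5 family. After axons have reached their targets, several of these molecules act at synapses, where they take part in spine formation, pruning and adhesion.

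The cultures were forebrain (cortex and hippocampus) neurons of CD1 mouse embryos of mixed sex, dissected between embryonic day 16 and 17.5, and no gene was altered in any group. In the maturation experiment, neurons at 7 days in vitro (7DIV) were compared with mature neurons, which are labelled 23DIV and called 21DIV here. At each stage they were left unstimulated (basal), or received 55 mM KCl, which depolarizes the membrane, or a mixture of 50 μM bicuculline and 2.5 mM 4-aminopyridine (Bic+4AP), for 15 or 180 min. Bicuculline prevents inhibition through GABA-A receptors, and 4-aminopyridine closes potassium channels. Each of these groups had 3 samples, except Bic+4AP at 21DIV, which had 2 at each time. The stimuli experiment used neurons at 21DIV. It compared basal neurons (3 samples) with KCl or with bicuculline alone (Bic) for 15, 45 or 180 min (2 samples each), and neurons silenced for 48 h with 1 μM tetrodotoxin (basal TTX, 4 samples), a blocker of sodium channels, with neurons 15, 45 or 180 min after its removal (TTXw; 3, 2 and 3 samples). The cultures are not pure, so a change of a transcript in neurons and a change in the number of cells that carry it cannot be told apart. Sample descriptions carry a code letter whose meaning is not given. Basal samples at 7DIV and at 21DIV of the maturation experiment share no letter. Neither sample of Bic+4AP for 180 min at 21DIV shares its letter with a basal sample. In these comparisons, differences that go with the letter cannot be told apart from those of stage or treatment.

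RNA was measured as counts of 3′ ends. Counts on genes per sample ranged from 1659722 to 4474968 at 7DIV, from 1784170 to 14012872 at 21DIV of the maturation experiment and from 1177500 to 3909487 in the stimuli experiment. The 8 neuronal markers summed to 4195 CPM (counts scaled to library size) in basal samples at 7DIV and 5619 at 21DIV, and all 8 passed the filter on low counts. All 8 were called with stage, but in opposite directions: Tubb3 was lower by 1.65 and Map2 by 0.68 on the log2 scale, and the others were higher. Astrocyte markers rose with stage, from 614 ± 134 (SD, n = 3) to 4986 ± 584 CPM, with 7 of 8 called higher. Oligodendrocyte lineage markers rose too, from 628 ± 143 to 2937 ± 412 CPM, with 8 of 8 tested markers called higher. Microglial markers summed to between 2.96 and 20.1 CPM as group means.

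A gene was called when its adjusted p was under 0.05 and its change at least 1.5-fold (edgeR, quasi-likelihood test, Benjamini-Hochberg adjustment over all genes tested). Of the 69 genes, 55 passed the filter on low counts in the maturation experiment, 56 in the stimuli experiment, and 49 in the fit of the basal samples alone. The other 12 passed in neither experiment: Ntn1, Ntn4, Sema3b, Sema3g, Efna3, Epha1, Epha2, Epha8, Ephb4, Robo3, Robo4 and Plxna4os1. Thus both netrins were near the limit of detection. Ntn1, the ligand of Dcc, had between 0 and 48 counts per sample in the maturation experiment and between 0 and 7 in the stimuli experiment, with a highest level of 4.56 CPM, and Ntn4 had at most 5 counts. Across all comparisons 46 of 69 genes were called at least once, and Nrp2, Plxnb1 and Sema3a were called in 5 comparisons each, the most of any. The remaining 11 genes were tested and called in none of these comparisons: Efna1, Efna4, Efnb1, Epha5, Plxnc1, Plxnd1, Sema3f, Sema4d, Sema6b, Slit1 and Unc50.

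The first comparison asks how unstimulated neurons at 21DIV differ from those at 7DIV. Guidance genes were mostly lower in the mature cultures: 24 of 49 tested genes fell and 6 rose. The 30 called genes are 61.2% of those tested, where 33.1% of all genes tested were called (18.2% higher and 14.9% lower), and the median log2 fold change was -0.62 for guidance genes and 0.01 for all genes. Falls came from ligands and receptors alike, with 10 of 22 tested ligands and 14 of 26 tested receptors. Of the called genes, 4 falls (Efna2, Epha3, Sema4c and Sema6c) and 2 rises (Unc5a and Unc5b) passed the filter on low counts only through the stage at which they were higher, and a gene that passes in this way has to differ. Rises came from 1 ligand, Sema5a, and 5 receptors, Epha4, Epha6, Unc5a, Unc5b and Unc5d.

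**Figure D1:**
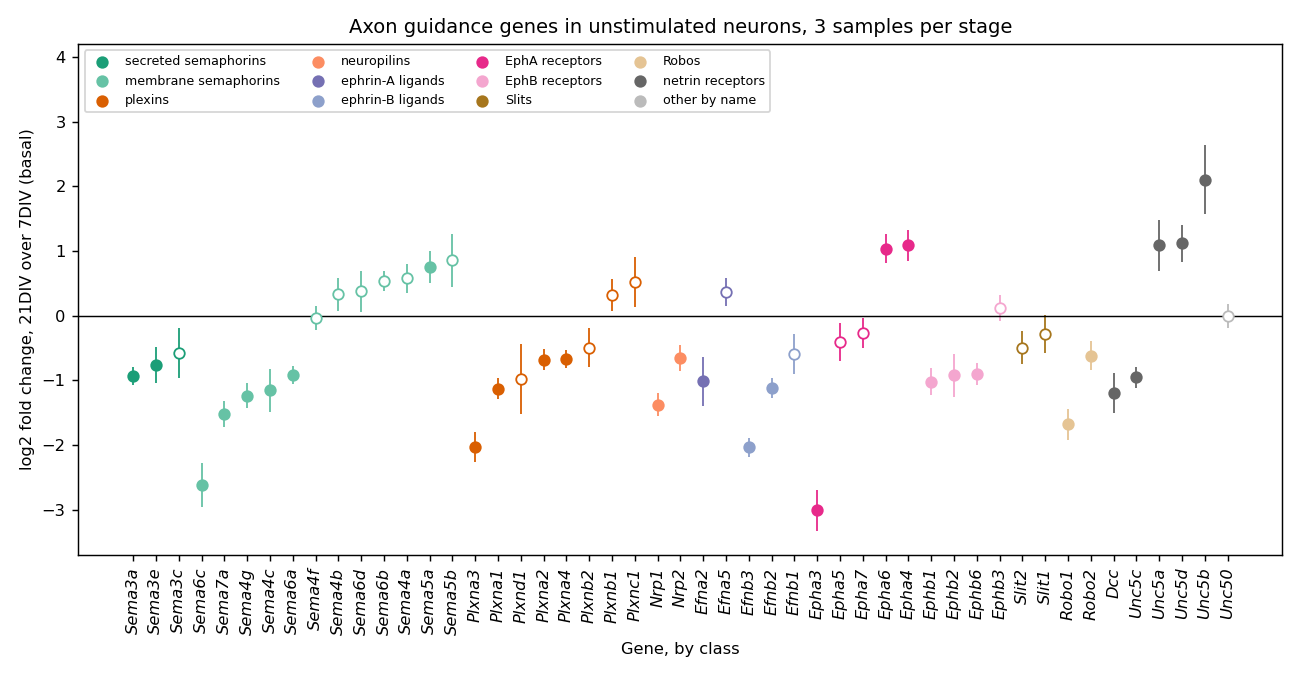
Log2 fold change of the 49 tested guidance genes in basal neurons, 21DIV over 7DIV (y axis), with genes grouped by class on the x axis. Bars are the standard error, filled points are called genes and open points are not. Called genes lie below 0 in 24 cases, and the called genes above 0 are Sema5a, Epha4, Epha6 and 3 Unc5 receptors.

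The receptor Epha3, which binds ephrins of class A, had 26.5, 38 and 23.0 CPM in the basal samples at 7DIV and 2.42, 3.40 and 4.43 CPM at 21DIV. The groups lay far apart, a fall of 3.01 on the log2 scale (SE 0.32, adjusted p = 7.51e-06) or 8.06-fold. This was the largest change of any guidance gene with stage. Epha3 is one of the genes above that passed the filter only through the stage at which they were higher. Among the other Eph receptors, Ephb1, Ephb2 and Ephb6 fell by 1.02, 0.92 and 0.90 on the log2 scale, and Ephb3 had a log2 fold change of 0.12 that did not pass (SE 0.21). In contrast, Epha4, which binds ephrins of both classes, rose from 48.3, 42.3 and 37.9 to 56.9, 118 and 91.7 CPM, a log2 fold change of 1.09 (SE 0.24, adjusted p = 0.00264). Epha6 rose by 1.04 (SE 0.23), from 18, 13.5 and 16.3 to 27, 33.6 and 36.2 CPM. Thus EphA receptors moved both ways, while no tested EphB receptor was called higher.

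Among ephrins of class B, 2 of 3 fell, as did 3 of the 4 tested EphB receptors. Efnb3, a transmembrane ephrin known for stopping axons at the midline, had 531, 586 and 479 CPM at 7DIV and 149.7, 122 and 109 CPM at 21DIV. It fell by 2.04 (SE 0.15, adjusted p = 2.57e-07), the lowest p of any guidance gene here. Efnb2 fell by 1.12 (SE 0.16), with 137, 165 and 141 CPM at 7DIV and 55.5, 73.9 and 70.4 CPM at 21DIV. The third member of this class, Efnb1, had a log2 fold change of -0.59 that did not pass the test (SE 0.31, adjusted p = 0.145). Of the ephrins of class A, Efna2 fell by 1.01 from 8.53, 8.59 and 8.40 to 3.80, 3.58 and 4.87 CPM, a call lost when any one of the 6 libraries was left out, and Efna5 had a log2 fold change of 0.36 that did not pass.

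**Figure D2:**
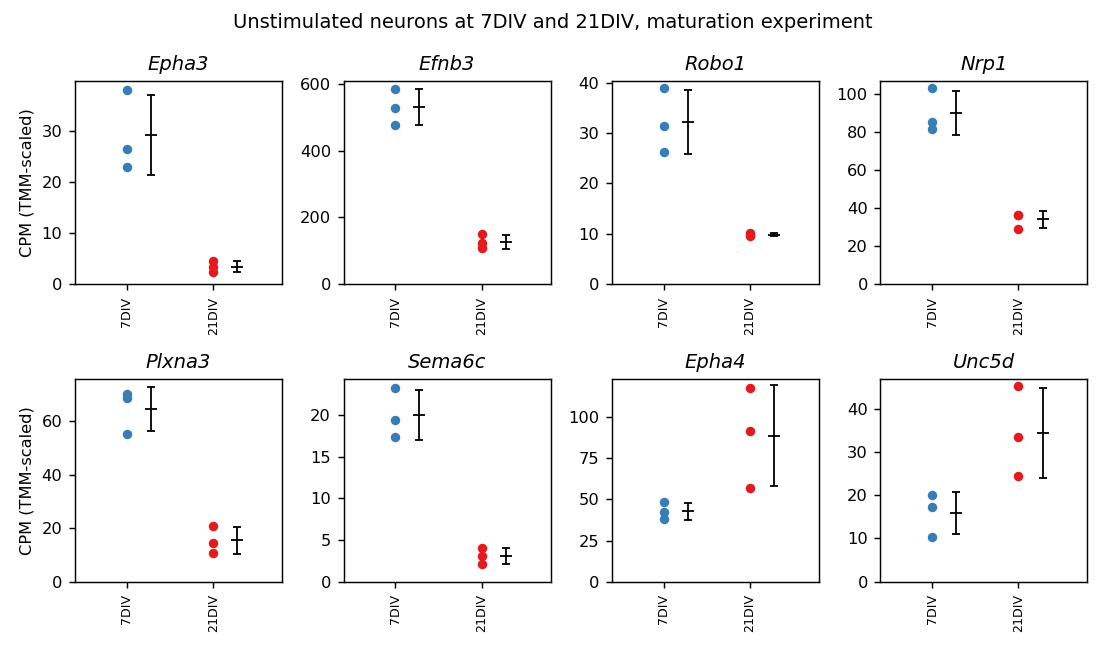
CPM (TMM-scaled, y axis) of 8 guidance genes in each basal sample at 7DIV (blue) and 21DIV (red) of the maturation experiment, 3 samples each, with the mean and SD in black. For all 8 genes the stages do not overlap: 6 are lower at 21DIV, and Epha4 and Unc5d are higher.

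Both neuropilins, 4 plexins and the class 3 semaphorin Sema3a fell together. Nrp1, the receptor subunit that binds Sema3a, had 103, 85.3 and 81.8 CPM at 7DIV and 29, 36.5 and 36.4 CPM at 21DIV, a fall of 1.37 (SE 0.17, adjusted p = 3.34e-05). Nrp2 fell by 0.66 (SE 0.20), from 63.0, 53.4 and 40.9 to 32.5, 35.2 and 29.3 CPM. The stages did not overlap for either neuropilin, although the call for Nrp2 was lost without 21DIV replicate 3 or without 7DIV replicate 2. Their partner Plxna3, a plexin that carries class 3 semaphorin signals, fell from 70.1, 55.2 and 68.5 to 10.9, 14.5 and 20.8 CPM, by 2.03 on the log2 scale (SE 0.24, adjusted p = 1.60e-05). The other class A plexins Plxna1, Plxna2 and Plxna4 fell by 1.13, 0.68 and 0.67. None of the class B plexins tested was called, with log2 fold changes of 0.31 for Plxnb1 and -0.50 for Plxnb2. Among the ligands, Sema3a fell by 0.93 (SE 0.14), with 144, 177 and 163 CPM at 7DIV and 77.3, 87.6 and 84.2 CPM at 21DIV, and Sema3e fell by 0.76 (SE 0.28).

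Membrane semaphorins were split. Sema6c had 19.4, 23.3 and 17.3 CPM at 7DIV and 3.11, 2.15 and 3.98 CPM at 21DIV, a fall of 2.62 (SE 0.34, adjusted p = 4.44e-05). Sema7a, which is held in the membrane by a lipid anchor, fell by 1.51 (SE 0.20, adjusted p = 4.83e-05), from 70.6, 58.9 and 61.8 to 18, 20.4 and 26.9 CPM. Sema4g, Sema4c and Sema6a fell by 1.24, 1.15 and 0.92. The remaining 7 of 12 tested membrane semaphorins were not called lower: Sema5a rose by 0.76 (SE 0.25), and of the 6 not called, Sema6b passed the adjusted p (0.0151) but not the fold, with 58.7, 54.0 and 60.4 CPM at 7DIV and 82.3, 73.7 and 90.7 CPM at 21DIV.

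The Slit receptors fell, and the netrin receptors moved in opposite directions. Robo1 had 38.8, 31.3 and 26.3 CPM at 7DIV and 9.68, 10.2 and 9.52 CPM at 21DIV, a fall of 1.68 (SE 0.24, adjusted p = 9.64e-05). Robo2 fell by 0.62 (SE 0.22), and this call was lost without any library but 21DIV replicate 2. Their ligands Slit1 and Slit2 were not called, at -0.29 (SE 0.30) and -0.49 (SE 0.26). Dcc, the receptor for attraction by netrin, had 26.5, 29.4 and 13.5 CPM at 7DIV and 7.78, 10.7 and 10.4 CPM at 21DIV, and fell by 1.19 (SE 0.31, adjusted p = 0.00839). Among the repulsive receptors, Unc5c fell by 0.96 (SE 0.17), whereas Unc5d rose by 1.12 (SE 0.29) from 10.4, 17.2 and 20.04 to 24.6, 45.2 and 33.5 CPM. Unc5a rose by 1.09 (SE 0.40), a call lost without 2 of the 3 libraries of either stage. Unc5b rose by 2.10 (SE 0.53), from 2.84, 1.23 and 1.63 CPM at 7DIV to 11.9, 4.65 and 7.63 CPM at 21DIV. The 5 netrin receptors thus gave 3 rises and 2 falls. Of the rises, Unc5a and Unc5b passed the filter on low counts only through the stage at which they were higher. The astrocyte and oligodendrocyte lineage markers given above rose in the same samples, and their part in the stage changes was not tested.

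Of these 30 calls, 18 held under every alternative processing and with each of the 6 libraries left out: Efnb2, Efnb3, Epha3, Epha4, Ephb1, Ephb6, Nrp1, Plxna1, Plxna2, Plxna3, Robo1, Sema3a, Sema4g, Sema6a, Sema6c, Sema7a, Unc5c and Unc5d. Among the 18, Epha3 and Sema6c passed the filter on low counts only through the stage at which they were higher. Genes that act downstream of guidance receptors were listed separately. Of 45 tested effectors, 24 were called with stage, 9 higher and 15 lower, where 33.1% of all genes tested were called (18.2% higher and 14.9% lower). Dpysl3, Dpysl5 and Crmp1, of the collapsin response mediator proteins that carry semaphorin signals to microtubules, fell by 3.15, 2.91 and 2.38, and Srgap1, which acts downstream of Slit and Robo, fell by 2.42. In contrast, Chn1, which acts downstream of Epha4, rose by 2.65. Of 25 tested cues and receptors of other families, 11 were called, 4 higher and 7 lower, against the same share of all genes. The largest of these was the fall of Draxin, a repulsive cue that binds Dcc, by 3.14.

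The response to KCl and to Bic+4AP was then compared with basal samples of the same stage. At 7DIV guidance genes changed little. With KCl, 2 of 55 tested genes were called, both lower at 180 min, where 1.98% of all genes tested were called and 0.936% were called lower. The first was Nrp1, which fell by 0.89 (SE 0.22, adjusted p = 0.0301) from 103, 85.3 and 81.8 CPM in basal samples to 49.7, 42.5 and 52.9 CPM. The second was Ephb3, a receptor for ephrins of class B, which fell by 0.78 (SE 0.20, adjusted p = 0.035) from 39.8, 37.4 and 26.5 to 19.3, 23.8 and 16.6 CPM. The treated samples lay below every basal sample for both genes. Either call was lost without 7DIV basal replicate 2 or 3 or without KCl replicate 1 or 3 (0 called in each of these fits), and Ephb3 was the 1 gene still called without basal replicate 4 or KCl replicate 2. At 15 min of KCl no guidance gene was called, with 3 at an unadjusted p under 0.05. With Bic+4AP at 7DIV 0 guidance genes and 0% of all genes tested were called by edgeR, with 2 guidance genes at an unadjusted p under 0.05 at 15 min and 3 at 180 min, and DESeq2 called 0 guidance genes as well.

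At 21DIV neither Nrp1 nor Ephb3 was called with these treatments. With KCl, 4 of 55 tested genes were called at 15 or 180 min, where 8.84% of all genes tested were (6.23% at 15 min and 4.89% at 180 min). At 15 min Epha4 fell by 0.96 (SE 0.26, adjusted p = 0.0212), from 56.9, 118 and 91.7 CPM in basal samples to 28.3, 65.8 and 45.0 CPM, so that the groups overlapped. Robo2 fell by 0.69 (SE 0.19, adjusted p = 0.0226), from 26.1, 44.7 and 27.2 to 17.2, 23.8 and 20.1 CPM, without overlap. Unc5a fell by 1.13 (SE 0.36) from 7.09, 11.4 and 7.97 to 5.16, 3.57 and 3.03 CPM. The semaphorin Sema4b was the one that rose, at both times. It had 17.5, 21.6 and 29.2 CPM in basal samples, 31.9, 47.2 and 48.9 CPM at 15 min and 40.9, 37.4 and 41.3 CPM at 180 min, log2 fold changes of 0.89 (SE 0.24) and 0.80 (SE 0.25). These counts rested on single libraries: 0 genes were called without basal replicate 2, 2 without basal replicate 3, 8 without basal replicate 1, 1 without KCl 15 min replicate 1 and 7 without KCl 180 min replicate 1.

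With Bic+4AP at 21DIV, 8 of 55 tested genes were called at 180 min, 5 higher and 3 lower, and none at 15 min by edgeR (3 at an unadjusted p under 0.05), where 0.0511% of all genes were called. The share of 14.5% was close to the 14.2% of all genes tested (7.39% higher and 6.84% lower). Sema3a fell by 0.77 (SE 0.19, adjusted p = 0.00611), from 77.3, 87.6 and 84.2 to 46.1 and 51.5 CPM. Sema4a, a membrane semaphorin, fell by 0.98 (SE 0.26, adjusted p = 0.0105), from 27.1, 38.8 and 30.6 to 12.7 and 20.3 CPM, and Plxnb1, the receptor of Sema4d, fell by 0.99 (SE 0.34) from 24.9, 24.3 and 16.4 to 7.92 and 14.4 CPM. The treated samples lay below the basal samples for these 3 genes. Among the rises, Sema6a went from 189, 159.9 and 185 to 274 and 299 CPM, by 0.69 (SE 0.18), and Sema4g from 28.7, 27.2 and 20.9 to 38.3 and 44.2 CPM, by 0.69 (SE 0.20). Sema6c and Plxnb2 rose by 0.97 and 0.75, and the atypical receptor Epha10, which lacks kinase activity, rose by 2.09 (SE 0.51) from 2.07, 3.40 and 2.77 to 11.6 and 11.9 CPM. These comparisons and the stage comparison share the basal samples at 21DIV, and the Bic+4AP samples at 180 min share no code letter with those. The count was 3 without Bic+4AP 180 min replicate 2 and 4 without basal replicate 2. In the same samples astrocyte markers summed to 2390 ± 1042 CPM (SD, n = 2) against 4986 ± 584 in basal samples, with 3 of 8 called lower. Oligodendrocyte lineage markers summed to 1385 ± 467 against 2937 ± 412 CPM. Of the neuronal markers, Rbfox3, Slc17a7 and Tubb3 were called lower, at -1.06, -0.76 and -1.05 on the log2 scale, and the others were not called. Among markers of dividing progenitors, Mki67, Nes and Pax6 were called lower, at -1.25, -1.01 and -1.84. The microglial markers Aif1 and Cx3cr1 were called higher, at 1.19 and 4.58, both at low levels. The part of these marker changes in those of guidance genes was not tested.

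**Figure D3:**
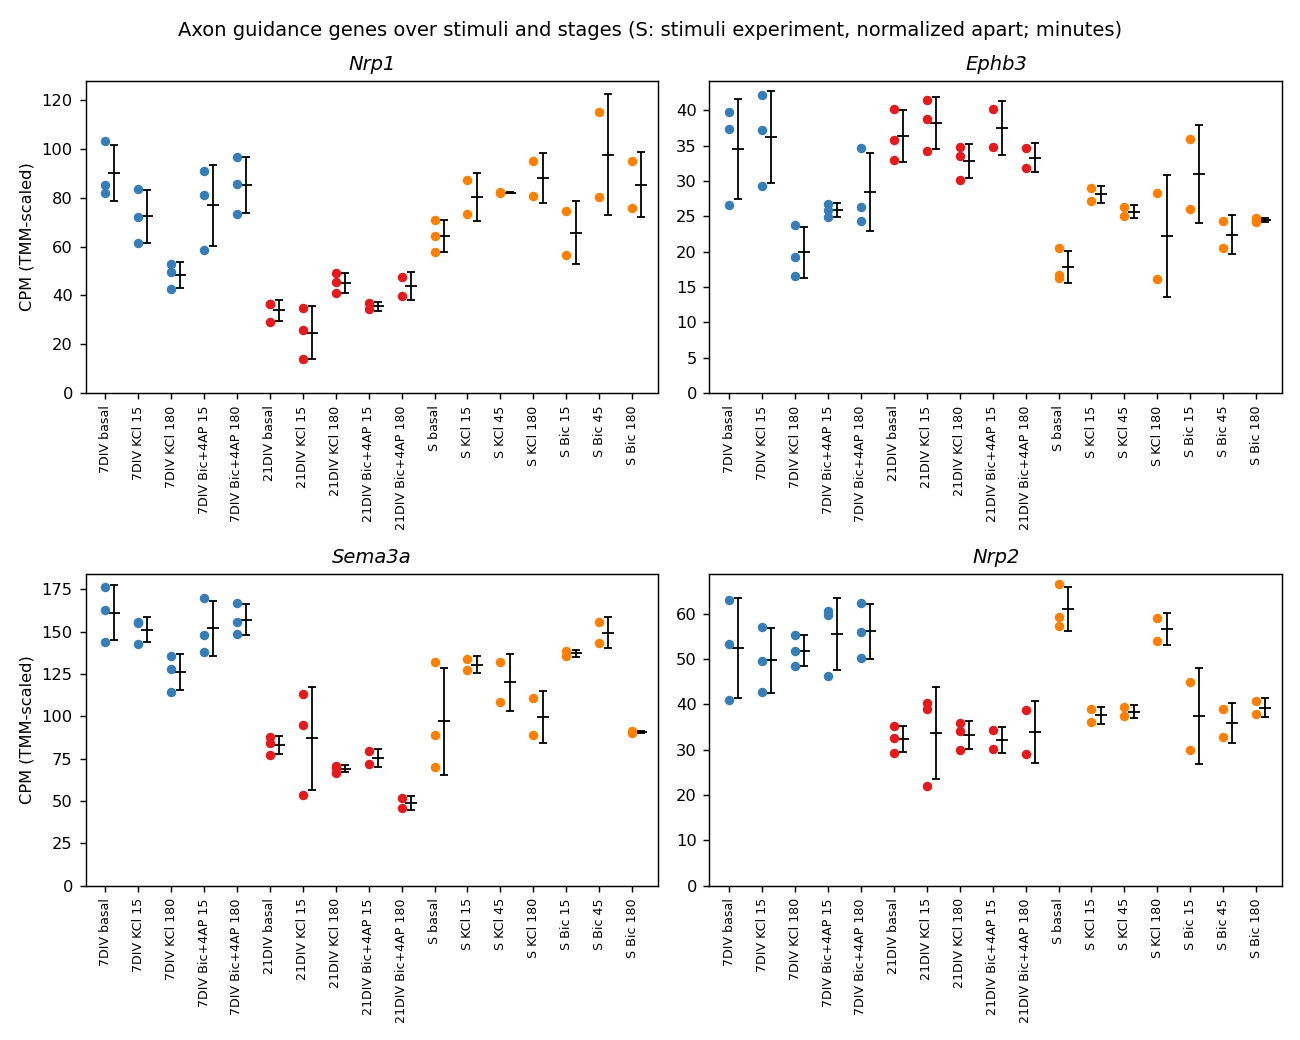
CPM (TMM-scaled, y axis) of Nrp1, Ephb3, Sema3a and Nrp2 in each sample of the groups on the x axis, with the mean and SD in black. Blue points are 7DIV and red points 21DIV of the maturation experiment, and orange points, marked S, are the stimuli experiment, which was normalized apart. Nrp1 at 7DIV is lowest at 180 min of KCl, between 42.5 and 52.9 CPM, whereas at 21DIV the samples of that treatment lie between 41.1 and 49.2 CPM, above the basal samples.

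Whether a response differs between the stages was tested directly, as the interaction of treatment and stage, with an adjusted p under 0.05 as the threshold. For KCl, 1 of 55 tested genes passed, where 2.53% of all genes did (2.03% at 15 min and 0.775% at 180 min). This was Nrp1 at 180 min: its log2 fold change with KCl was -0.89 (SE 0.22) at 7DIV and 0.41 (SE 0.22) at 21DIV, from 29, 36.5 and 36.4 to 49.2, 45.5 and 41.1 CPM. The difference of 1.30 (SE 0.31, adjusted p = 0.0363) passed with the samples of both stages in the fit, and did not when any of 10 of the 12 libraries compared was left out or with only the groups compared. For Bic+4AP no guidance gene passed by edgeR, where 4.95% of all genes did at 180 min and 0.00851% at 15 min, with 12 at an unadjusted p under 0.05 at 180 min, a lowest adjusted p of 0.0562, and 1 gene passing by DESeq2.

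In the stimuli experiment, KCl and Bic alone were compared with basal samples at 21DIV. KCl changed 7 of 56 tested genes at 15 min, 3 higher and 4 lower, and none at 45 or 180 min by edgeR (10 and 7 at an unadjusted p under 0.05). Of all genes tested, 7.22% were called at 15 min (4.52% higher and 2.69% lower), 0.765% at 45 min, 0.765% at 180 min and 7.79% at any of these times, against 12.5% of the guidance genes. The plexins moved in opposite directions. Plxnb1 rose by 0.94 (SE 0.25, adjusted p = 0.0108), from 8.31, 15.3 and 13.6 CPM in basal samples to 18.7 and 27.7 CPM, while Plxnb2, which also binds class 4 semaphorins, fell by 0.92 (SE 0.23, adjusted p = 0.00775) from 22.3, 27.9 and 27.3 to 16.7 and 10.9 CPM. Sema4a rose by 0.89 (SE 0.23, adjusted p = 0.00953), from 18.3, 17.1 and 11.8 to 28.4 and 30.2 CPM. For each of these genes the treated samples lay outside the range of the basal samples. The Slit ligand Slit2 fell by 0.70 (SE 0.20) from 62.5, 55.1 and 69.4 to 39.8 and 36.8 CPM, and Nrp2 fell by 0.70 (SE 0.22) from 59.3, 66.6 and 57.2 to 36.2 and 39 CPM. Sema4f fell by 0.60 (SE 0.19). Ephb3 rose by 0.66 (SE 0.21) from 16.3, 20.5 and 16.7 to 27.2 and 29 CPM.

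Bic alone was tested in the same way. Of 56 tested genes, 7 were called at 1 or more times, where 8.61% of all genes tested were (3.42% at 15 min, 7.45% at 45 min and 0.765% at 180 min): Ephb3 at 15 min, 6 genes at 45 min, and none at 180 min by edgeR (4 at an unadjusted p under 0.05). Ephb3 rose by 0.85 (SE 0.22, adjusted p = 0.018) at 15 min, to 35.9 and 26.1 CPM. At 45 min Plxnb1 rose by 0.97 (SE 0.25, adjusted p = 0.00884), to 25.8 and 22.4 CPM, and Slit2 and Nrp2 fell by 0.71 (SE 0.20) and 0.76 (SE 0.22), to 39.7 and 36.5 CPM and to 32.7 and 39.1 CPM. The other rises at 45 min were Sema3a by 0.63 (SE 0.17), from 89.1, 132 and 70.1 to 143 and 156 CPM, Nrp1 by 0.61 (SE 0.18), from 64.2, 57.7 and 70.9 to 80.3 and 115 CPM, and Epha4 by 0.60 (SE 0.17), from 182, 191 and 137 to 261 and 254 CPM. Sema3a and its receptor subunit Nrp1 were therefore both higher at this time, and the treated samples lay above all basal samples for each. None of the 6 calls at 45 min held under every alternative processing, and none held with each library left out. The 2 stimuli share their basal samples, and so their fold changes are not independent. Tested directly against each other at matched times, Bic and KCl differed for 0 of 56 genes by edgeR and by DESeq2, where 1.19% of all genes were called (0% at 15 min, 0.682% at 45 min and 0.723% at 180 min). At an unadjusted p under 0.05 there were 4, 4 and 1 guidance genes at 15, 45 and 180 min. Such a result does not show that the stimuli act alike: for Nrp2 at 180 min Bic minus KCl was -0.53 (SE 0.25) on the log2 scale.

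These counts depended on few libraries. Without basal replicate 1, 2 genes were called with KCl and 2 with Bic, and without basal replicate 5 these were 2 and 3 (replicate 5 is numbered so in its title and 2 in its description). Without KCl 15 min replicate 2, 0 genes were called with KCl, and without Bic 45 min replicate 1 or 2, Bic called 4 or 3. The samples at 15 and 45 min of both stimuli share their code letter with only 1 basal sample. Against that sample alone, with the other groups supplying the spread and the lone sample assumed to vary like them, KCl called 5 guidance genes (Plxnb2, Sema4a and Sema4f, and also Efna1 and Sema3a) and Bic 2 (Epha4 and Sema3a, at 45 min). The calls that were lost kept their direction: with KCl at 15 min Plxnb1 was at 0.78 (SE 0.33), Slit2 at -0.86 (SE 0.27), Ephb3 at 0.75 (SE 0.31) and Nrp2 at -0.61 (SE 0.30). With Bic at 45 min Nrp1 was at 0.47 (SE 0.26), Nrp2 at -0.67 (SE 0.30), Plxnb1 at 0.81 (SE 0.33) and Slit2 at -0.87 (SE 0.27). In the samples of KCl at 15 min and Bic at 45 min 8 of 8 astrocyte markers had fold changes above 0, with 4 called with KCl at 15 min and 6 with Bic at 45 min, and their summed level was 4550 ± 46 and 5288 ± 430 CPM (SD, n = 2) against 2714 ± 274 CPM in basal samples. Oligodendrocyte lineage markers summed to 1510 ± 99.7 and 1491 ± 159 CPM against 981 ± 239 CPM, with 4 of 8 tested called higher in each. Of 6 markers of dividing progenitors, 3 were called higher with KCl, and 2 higher and 1 lower with Bic. Among neuronal markers, Slc17a7 and Tubb3 were called higher with KCl, at 0.59 and 0.73 on the log2 scale. Gad2, Rbfox3 and Tubb3 were called higher with Bic, at 0.63, 0.66 and 0.61. No neuronal marker was called lower with either. The part of these differences in the changes of guidance genes was not tested.

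KCl was applied for 15 min at 21DIV in both experiments, which share no samples. No guidance gene was called in both. Sema4b had log2 fold changes of 0.89 (SE 0.24) in the maturation experiment and 0.17 (SE 0.26) in the stimuli experiment. Plxnb1 was at -0.63 (SE 0.29) and 0.94 (SE 0.25), Sema4a at -0.51 (SE 0.22) and 0.89 (SE 0.23), and Plxnb2 at 0.46 (SE 0.23) and -0.92 (SE 0.23). Across the 54 guidance genes tested in both, the fold changes had a Pearson's r of -0.099 and a Spearman's rho of -0.041, as a description across genes, which are not independent replicates. Over all 11289 genes tested in both, r was -0.003.

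The promoters of Ephb3 and Epha4 are shown because these genes rose with KCl or Bic in the stimuli experiment and match a motif. Each carries the core of the cAMP response element, bound by the activity-dependent factor CREB, in the 250 bases before its annotated start. Plxnb1, Sema4a, Sema3a and Nrp1, also called higher with KCl or Bic there, are not among the guidance genes with a match. In the maturation experiment both genes shown were called lower with KCl, Ephb3 at 180 min in the younger and Epha4 at 15 min in the mature neurons. Neither these falls nor the rises in the stimuli experiment held under every alternative processing, and none held with each library left out. A link between the core and these changes was not tested. The sequences are from RefSeq on GRCm38.p6, read 5′ to 3′ in the direction of the gene, with the core (TGACG, or CGTCA on the other strand) in capitals. The Ephb3 window is chr16:21204545-21204794 on the plus strand and the Epha4 window chr1:77515089-77515338 on the minus strand, and the matches begin 79 and 57 bases before the start.
Ephb3: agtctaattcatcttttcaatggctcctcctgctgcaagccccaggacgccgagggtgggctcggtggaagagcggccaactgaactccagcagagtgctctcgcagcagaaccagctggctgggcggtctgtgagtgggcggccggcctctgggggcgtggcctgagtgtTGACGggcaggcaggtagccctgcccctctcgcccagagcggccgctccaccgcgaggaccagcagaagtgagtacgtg
Epha4: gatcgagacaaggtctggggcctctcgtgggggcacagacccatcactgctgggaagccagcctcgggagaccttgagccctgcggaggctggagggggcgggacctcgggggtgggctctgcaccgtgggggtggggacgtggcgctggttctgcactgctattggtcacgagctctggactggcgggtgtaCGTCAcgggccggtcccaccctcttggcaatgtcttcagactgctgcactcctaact

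Windows were found for 58 of 69 genes, and 7 of them (12.1%) held the core TGACG on either strand, where 19.8% of 27025 genes did: Efnb1, Efnb2, Epha2, Epha4, Ephb3, Sema3d and Unc5c. The full element TGACGTCA was in 1 window (1.72%, against 1.77% of all genes), which also counts among the matches to the core, and the AP-1 motif TGANTCA in 3 (5.17%, against 7.82%). These are matches of letters and not sites shown to be bound.

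Silencing for 48 h with TTX changed more guidance genes than any acute stimulus. Of 56 tested genes, 10 rose and 10 fell against basal samples, 35.7% where 21.6% of all genes tested were called (10.8% in each direction). Sema3e, a secreted semaphorin that binds Plxnd1 without a neuropilin, had 21.5, 22.7 and 27.3 CPM in basal samples and 7.32, 8.13, 8.58 and 6.87 CPM in basal TTX, a fall of 1.63 (SE 0.21, adjusted p = 5.02e-08). Slit2 fell by 1.45 (SE 0.19, adjusted p = 6.90e-08), from 62.5, 55.1 and 69.4 to 20.6, 31.9, 25 and 15.9 CPM, and Slit3 fell by 1.48 (SE 0.35, adjusted p = 0.000983), from 9.46, 10.4 and 12.9 to 2.00, 2.90, 3.58 and 5.79 CPM. Thus 2 of the 3 Slits fell together, while Slit1 was not called. Efna5, an ephrin of class A, fell by 1.34 (SE 0.18) from 58.7, 54.3 and 71.6 to 29.3, 31.4, 20.7 and 17.7 CPM, and Epha10 fell by 1.44 (SE 0.31, adjusted p = 0.000362) from 12, 15.6 and 12.1 to 5.32, 4.07, 4.29 and 5.42 CPM. For each of these falls every silenced sample lay below every basal sample. Nrp2 fell by 0.82 (SE 0.19), Sema6a by 0.73 (SE 0.11), Sema3a by 0.70 (SE 0.15), Plxna4 by 0.69 (SE 0.15) and Ephb6 by 0.62 (SE 0.15). Nrp1 passed the adjusted p (0.0281) but not the fold, at -0.49 (SE 0.17), and Dcc did not pass the adjusted p, at -0.55 (SE 0.22, adjusted p = 0.0562).

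The rise with the lowest p was that of Plxnb1. It had 8.31, 15.3 and 13.6 CPM in basal samples and 35.9, 47, 28.6 and 41.9 CPM in basal TTX, a log2 fold change of 1.67 (SE 0.21, adjusted p = 5.78e-08). Sema3d rose by 1.78 (SE 0.37, adjusted p = 0.000271), from 6.88, 2.60 and 2.27 to 8.65, 19.2, 13.6 and 14.8 CPM. Membrane semaphorins followed: Sema5b rose by 1.35 (SE 0.28), Sema4b by 1.01 (SE 0.21), Sema4a by 0.97 (SE 0.20) and Sema6d by 0.91 (SE 0.29). Sema3c rose by 1.13, and Ephb1 and Plxna3 by 0.68 each. Plxnb3 passed the test on few reads, with 1, 2 and 2 counts in the basal samples and 29 in the 4 silenced samples together, a ratio per library of 6.92 (exact 95% interval 2.65 to 22.9, counting error only), and it was above 5 CPM only in samples that had received TTX. Semaphorins therefore gave 6 rises and 3 falls, whereas the called Slits and the called ephrin fell.

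**Figure D4:**
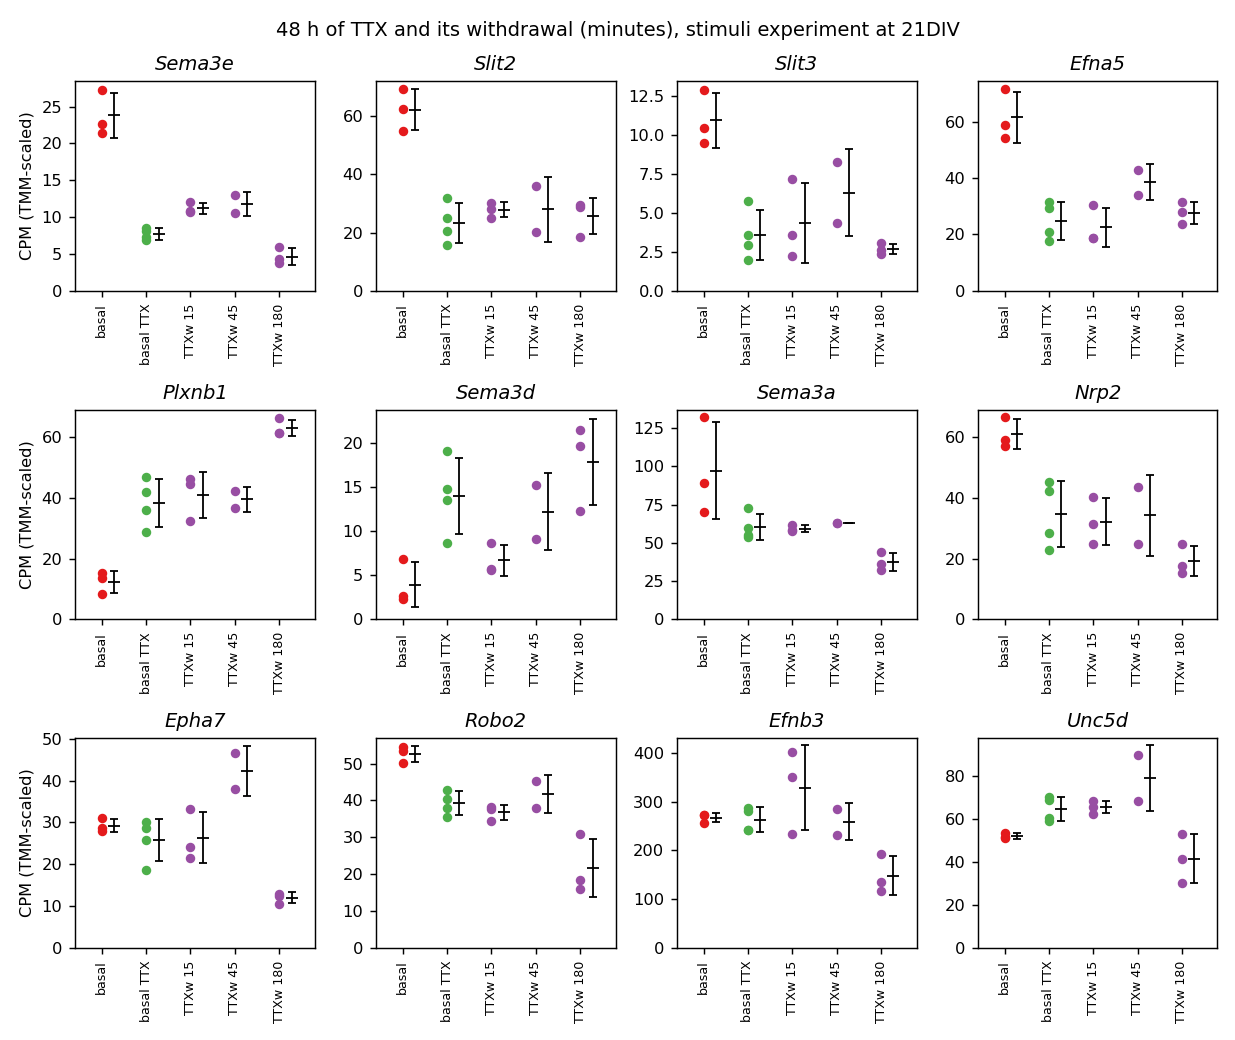
CPM (TMM-scaled, y axis) of 12 guidance genes in each sample of basal neurons (red), neurons silenced for 48 h with TTX (green) and neurons 15, 45 or 180 min after its removal (purple), with the mean and SD in black. Sema3e, Slit2, Slit3 and Efna5 are lower in every silenced sample than in every basal sample, Plxnb1 and Sema3d are higher, and Epha7, Robo2, Efnb3 and Unc5d have their lowest mean at 180 min of TTXw.

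Of the 20 calls, 12 held under every alternative and with each library left out: Efna5, Epha10, Nrp2, Plxnb1, Plxnb3, Sema3d, Sema3e, Sema4a, Sema5b, Sema6a, Slit2 and Slit3. Other cells of the culture moved with the silencing. Astrocyte markers summed to 7687 ± 495 CPM (SD, n = 4) in basal TTX against 2714 ± 274 CPM (n = 3) in basal samples, with 8 of 8 called higher and none at 0. Oligodendrocyte lineage markers summed to 2274 ± 21 against 981 ± 239 CPM, with 6 of 8 called higher, and neuronal markers to 4663 ± 215 against 5344 ± 114 CPM. Of the neuronal markers only Snap25 was called, lower by 0.73. Gad1 and Map2 were also below 0, and Gad2, Rbfox3, Slc17a7, Syt1 and Tubb3 had log2 fold changes above 0. Of the markers of dividing progenitors, Hes5, Mki67, Pax6 and Top2a were called higher, at 1.07, 1.23, 1.58 and 0.71 on the log2 scale. Nes and Vim were not called. The pericyte marker Rgs5 was called higher at 0.74. The fibroblast marker Dcn was called higher at 0.80, as was Pdgfra, also in the oligodendrocyte lineage list, at 0.84. The microglial marker Cx3cr1 was called lower at -2.71, and Csf1r was not called. The part of these shifts in the changes of guidance genes was not tested. The 6 activity-regulated genes used as a check (Fos, Arc, Npas4, Egr1, Nr4a1 and Bdnf) all fell with TTX. Of 47 tested effectors 10 were called, 3 higher and 7 lower, where 21.6% of all genes tested were. Among them, Rock2, a kinase that drives growth cone collapse, was lower by 1.35 and Dock1, an activator of Rac, was higher by 1.26.

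Silencing and maturation come from separate experiments and can be set side by side. Of 49 genes tested in both, 30 were called with stage and 16 with TTX, and 8 with both, which is 26.7% of the first and 50% of the second, where 61.2% of the 49 genes were called with stage. Of these, Ephb6, Nrp2, Plxna4, Sema3a, Sema3e and Sema6a fell in both comparisons, and Ephb1 and Plxna3 fell with stage and rose with TTX. The fold changes of the 49 genes had a Pearson's r of 0.093, as a description.

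Removal of TTX was compared with neurons still silenced. The paper removed TTX by repeated exchanges for fresh medium and washed control neurons in the same way. Its basal wells for KCl and Bic had only a small part of their medium replaced. An effect of this handling on the TTX and TTXw comparisons was not tested. No guidance gene and 0% of all genes were called at 15 min by edgeR (5 guidance genes at an unadjusted p under 0.05), and 1 at 45 min, where 0.382% of all genes tested were called. This was Epha6, which rose by 0.79 (SE 0.18, adjusted p = 0.0259) from 54.5, 45.3, 52.2 and 47.7 CPM in basal TTX to 87.8 and 84.7 CPM. At 180 min 10 of 56 tested genes were called, 9 lower and 1 higher, 17.9% where 14% of all genes were (7.33% higher and 6.69% lower), and over the 3 times 14.2% of all genes were called. Of the falls, 7 were receptors and 2 were ligands. Epha7 fell by 1.13 (SE 0.22, adjusted p = 0.000233), from 18.6, 30.2, 28.6 and 25.7 to 12.4, 10.4 and 12.9 CPM. Robo2 fell by 0.85 (SE 0.19, adjusted p = 0.00123), from 37.9, 35.4, 42.9 and 40.5 to 30.7, 18.5 and 15.9 CPM, and Nrp2 by 0.85 (SE 0.24, adjusted p = 0.00861), from 45.2, 42.4, 22.9 and 28.6 to 24.9, 17.5 and 15.2 CPM. All TTXw samples lay below all silenced samples for Epha7 and Robo2, and the groups overlapped for Nrp2.

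Of the 5 netrin receptors, 3 fell at 180 min of TTXw, and Unc5a and Unc5b were at -0.35 (SE 0.47) and -0.01 (SE 0.35) and did not pass. Dcc fell by 0.74 (SE 0.27, adjusted p = 0.0482), from 30.6, 38.9, 32.2 and 17.4 to 15.7, 19.4 and 15.9 CPM, Unc5d by 0.67 (SE 0.16) and Unc5c by 0.63 (SE 0.19). Epha6, which had risen at 45 min, fell by 0.62 (SE 0.19) to 44.5, 22.7 and 31.9 CPM. Among ligands, Efnb3 fell by 0.83 (SE 0.16, adjusted p = 0.000164), from 282, 288, 241 and 241 to 194, 134 and 116 CPM, and Sema3a by 0.69 (SE 0.18) to 32.1, 36 and 44 CPM. Plxnb1 was the gene that rose, by 0.70 (SE 0.18, adjusted p = 0.00464), to 61.5, 66.2 and 61.5 CPM. Because the TTX and TTXw comparisons share the silenced samples, their fold changes are given side by side only: Plxnb1 had 1.67 with TTX and 0.70 with TTXw, Sema3a -0.70 and -0.69, and Nrp2 -0.82 and -0.85. The mean levels of these 3 genes at 180 min of TTXw thus lay further from the basal mean than those of the silenced samples did. Slit2, Slit3 and Efna5, which had fallen with TTX, had log2 fold changes of 0.13, -0.54 and 0.19 that did not pass.

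Efnb3, Epha7, Plxnb1, Robo2 and Sema3a held their call under every alternative and with each library left out. At 180 min of TTXw neuronal markers summed to 2893 ± 273 CPM (SD, n = 3) against 4663 ± 215 CPM in silenced samples, with 4 of 8 called lower, and astrocyte markers to 12839 ± 2245 against 7687 ± 495 CPM, with 5 of 8 called higher. Oligodendrocyte lineage markers summed to 3549 ± 421 against 2274 ± 21 CPM, with 5 of 8 tested called higher, and markers of dividing progenitors to 509 ± 53.1 against 242 ± 35.4 CPM, with 4 of 6 called higher and 1 lower. Rgs5, a pericyte marker and the only gene tested of its list, rose by 1.21. The tested fibroblast markers went opposite ways: Dcn fell by 1.03, and Pdgfra, which is also in the oligodendrocyte lineage list, rose by 1.39. The part of this shift in the falls of guidance genes was not tested. Of 25 tested cues and receptors of other families 7 were called, all lower, where 14% of all genes were called and 6.69% were lower. Among them, the adhesion molecule Chl1 was lower by 0.74 and the Unc5 ligand Flrt2 by 0.80. Of 47 tested effectors 12 were called, 6 higher and 6 lower, against the same 14% of all genes. Rnd3, an antagonist of RhoA, was higher by 2.24 and Pak1, an effector of Rac, lower by 0.83.

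**Figure D5:**
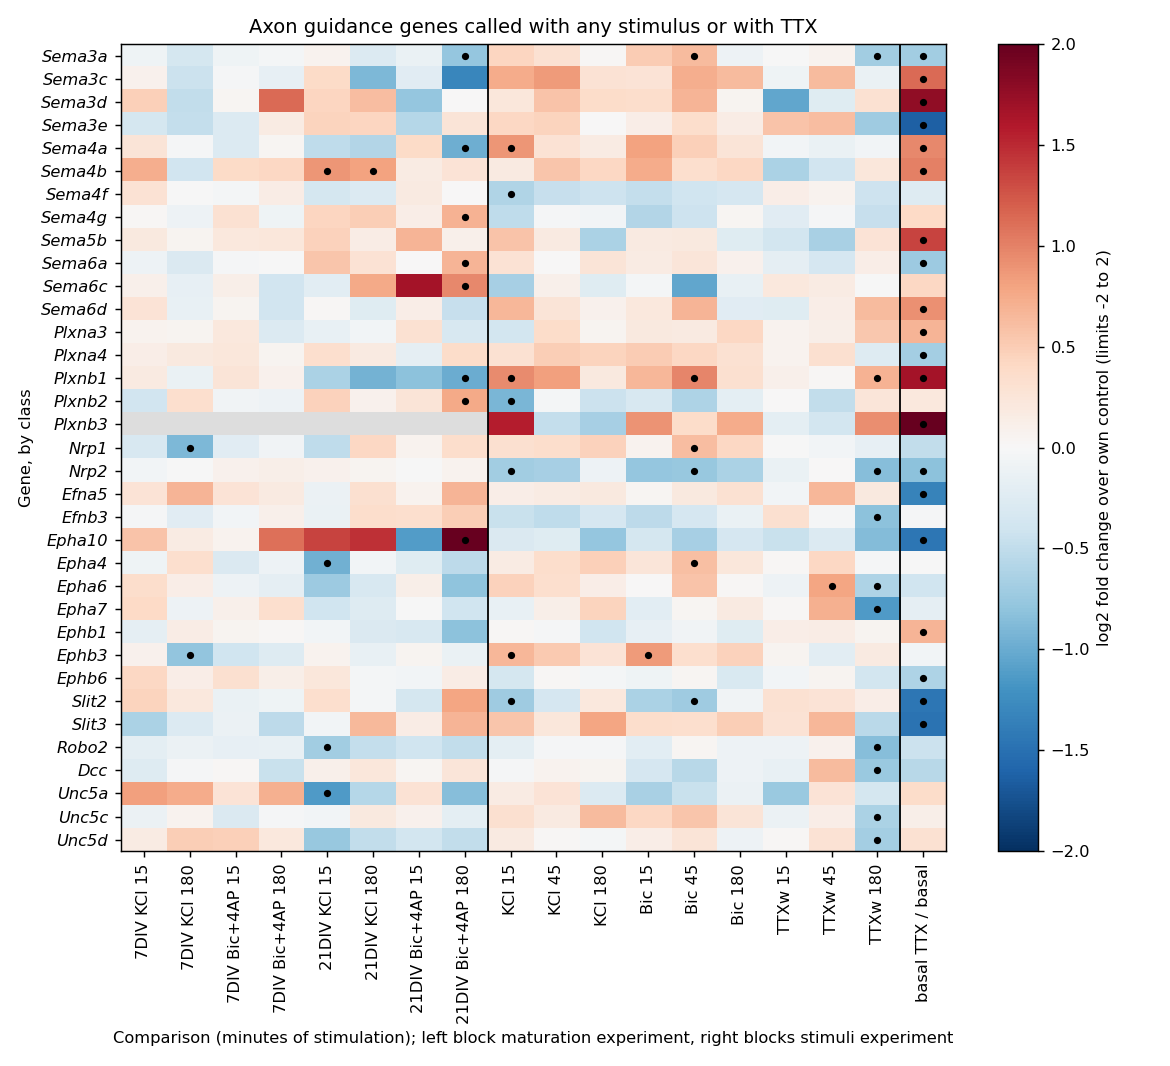
Log2 fold change (colour, limits -2 to 2) of the guidance genes called with any stimulus or with TTX (rows, by class) in each comparison with its own control (columns, minutes of stimulation), with dots on calls and grey where a gene was not tested. Dots gather in the columns of basal TTX over basal (20 genes) and TTXw at 180 min (10 genes), and Plxnb1 is blue in the column of Bic+4AP at 180 min and red in those of TTX, TTXw at 180 min, KCl at 15 min and Bic at 45 min.

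Of the 3 genes called most often, Plxnb1 and Sema3a moved in both directions and Nrp2 in 1. Plxnb1 fell with Bic+4AP for 180 min by 0.99 and rose with KCl for 15 min, Bic for 45 min, TTX and TTXw for 180 min by between 0.70 and 1.67. Sema3a fell with stage, Bic+4AP for 180 min, TTX and TTXw for 180 min by between 0.69 and 0.93, and rose with Bic for 45 min by 0.63. Nrp2 fell in all 5 of its calls, by between 0.66 and 0.85. The KCl, Bic and TTX comparisons of the stimuli experiment share their basal samples, and TTX and TTXw share the silenced samples. These calls are therefore not independent. Dcc was called in 2 comparisons, lower with stage and lower at 180 min of TTXw, and in the other comparisons its log2 fold changes lay between -0.63 and 0.69.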

How the data were processed

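RNA was measured by CEL-Seq2, which reads the 3′ ends of polyadenylated transcripts. The deposited values are raw counts per RefSeq transcript, which the authors made by aligning reads with STAR to mm10 and counting 3′ ends with ESAT. Whether strand and molecular identifiers were used in counting is not given in the sources used here. Transcripts were matched to symbols through RefSeq (GRCm38.p6), which covered 80.8% and 80.9% of transcripts of the maturation and stimuli experiments, and unmatched transcripts, with 18.5% and 19.2% of counts, were left out. For each gene the transcript with the highest total in an experiment was used. Genes with more than 5 CPM in at least 2 samples were tested with edgeR 4.0.16 (R 4.3.3; TMM, quasi-likelihood test, Benjamini-Hochberg adjustment), in 1 fit per experiment, except that stage was fitted on the 6 basal samples. Printed CPM are TMM-scaled over the whole experiment, and counts of 3′ ends were not compared between genes. The pipeline was tested on simulated data.

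Guidance genes with full statistics were up to 6 called genes per comparison with the largest changes, limited to average log2 CPM of 3 or more, and Nrp1, Nrp2, Dcc, Ntn1 and Ntn4 were always described. The genes and lists were chosen with earlier results of these data known. Replicate samples differed by more than sampling noise. Nothing in the labels says that replicates came from separate cultures or litters, so that p-values measure the spread between these samples only. The alternatives were other size factors (RLE), other filters on low counts, DESeq2 1.42.0, counts summed over transcripts or thinned to the smallest library, only the groups compared, a replicate block and each replicate left out. The comparison with basal samples of the same code letter was added after seeing the data. Figures were drawn with matplotlib 3.10.9.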

Additional observations from a re-analysis of the deposited data

Results flagged for a closer look

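Among the 4 basal TTX samples, 4 of the 56 tested guidance genes (7.14%) had 1 sample far from the others by Dixon's test, where chance flags about 1 in 20 groups. Epha3 was lowest in replicate 4, at 8.32 CPM with the next sample at 11.3 CPM. Epha5 was highest in replicate 3, at 80.1 CPM with the next at 48.6 CPM. Ephb3 was lowest in replicate 3, at 15.7 CPM with the next at 17.3 CPM, and Sema3c was lowest in replicate 2, at 4.65 CPM with the next at 9.30 CPM.

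The response of Nrp1 to 180 min of KCl differed between the stages by 1.30 on the log2 scale (SE 0.31, adjusted p = 0.0363, edgeR), with all treated samples below the basal samples at 7DIV and all above them at 21DIV. The difference did not pass when any of 10 of the 12 libraries compared was left out, with only the groups compared, with counts summed over transcripts or with the replicate block.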

How the results depend on the processing

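Of 91 calls of single guidance genes, 35 held under every alternative and with each replicate left out, and none changed direction. Counts of called guidance genes depended on the processing most in the comparisons with few calls, and the cause was not tested. With Bic alone, 7 became 2 with basal samples of the same code letter, 2 with counts summed over transcripts, 2 with thinned counts and 3 with the replicate block. With KCl in the stimuli experiment, 7 became 4 summed, 2 thinned, 4 with DESeq2 and 2 with the replicate block. With KCl at 21DIV of the maturation experiment, 4 became 2 summed, 2 thinned, 2 with only the groups compared, and 8 with DESeq2 or with no filter. With KCl at 7DIV, 2 became 1 summed, 0 thinned, 1 with only the groups compared and 1 with the replicate block. The stage difference of the KCl response went from 1 gene to 2 with DESeq2, 3 with no filter, 0 with only the groups compared and 0 with the replicate block, and that of Bic+4AP from 0 to 1 summed, 1 thinned, 1 with DESeq2 and 2 with only the groups compared.

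Leaving out each replicate in turn gave 21 to 28 calls for stage (30 with all samples), 16 to 22 for TTX (20), 8 to 11 for TTXw (10), 3 to 9 for Bic+4AP at 21DIV (8), 0 to 0 at 7DIV (0) and 0 to 1 for its stage difference (0). The ranges were 0 to 8 for KCl at 21DIV (4), 0 to 2 at 7DIV (2), 0 to 2 for its stage difference (1), 0 to 8 in the stimuli experiment (7), 2 to 10 for Bic alone (7) and 0 to 0 for Bic against KCl (0). Same-numbered replicates did not deviate together, with correlations between -0.247 and 0.114, and the main fits did not pair samples by number. In groups this small, such correlations cannot settle whether same-numbered samples came from a common culture. The replicate block gave 22 calls for stage, 17 for TTX, 10 for TTXw, 7 for Bic+4AP at 21DIV and 4 for KCl at 21DIV. At these depths small changes of genes near 5 CPM were not detectable.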
